A study of Mus musculus with 6 samples.

Results

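The genes described here are 8 members of the epidermal growth factor (EGF) receptor system, chosen by symbol from the 24340 genes of the deposited table. They are the ligand genes Hbegf, Areg, Ereg and Tgfa, the receptor genes Egfr and Erbb2, the sheddase gene Adam17 and the feedback inhibitor gene Errfi1. All 8 were listed, and the 7 other than Tgfa reached the mean of 1 FPKM (fragments scaled to transcript length and to the library's total) that was required for testing. The system was chosen because Hbegf was among the genes with the clearest difference between C13 and vehicle in an earlier look at these libraries. The difference between C13 and vehicle is therefore given for the 8 genes as a description, with no p-value.

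The RNA came from cultures of primary microglia (brain macrophages) of newborn C57BL/6 mice under 3 days old. In the vehicle group, 3 samples received DMSO for 1 h and then 1 ug/ml LPS (lipopolysaccharide of the bacterial outer membrane) for 5 h. In the C13 group, 3 samples received 10 uM C13, which the submitters describe as an inhibitor of the kinase MOK, in place of DMSO and then the same LPS. Both groups received LPS, so the libraries show how LPS-exposed cultures differed with C13 and hold no measure of the LPS response itself. Each sample is labelled a biological replicate, but the labels do not say whether replicates came from separate litters or cultures, so p-values measure only the spread between these samples, which may be technical.

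EGF-type ligands are made as precursors anchored in the cell membrane. The metalloprotease ADAM17 cuts many of them free, and the released domain binds EGFR, which then pairs with itself or with ERBB2, a receptor with no known ligand of its own. Receptor signalling through the ERK kinases switches on early response genes, among them genes of feedback inhibitors such as ERRFI1 (also called MIG6), which binds the EGFR kinase domain and restrains it. Macrophages are a known source of HB-EGF, the product of Hbegf.

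Promoter windows of 300 bases (250 before to 50 after the annotated start) were read from a RefSeq table on GRCm38.p6 for Areg, Tgfa, Egfr, Erbb2, Adam17 and Errfi1. The windows of Errfi1, whose libraries did not overlap between groups, and of Areg, whose libraries did, are shown because both hold the same pair of elements in nearly the same place. The capitals mark a full cyclic AMP response element (TGACGTCA) and a TATA element (TATAAA). The first lies on the plus strand at chr4:150854820-150855119 and the second on the plus strand at chr5:91139349-91139648.
Errfi1: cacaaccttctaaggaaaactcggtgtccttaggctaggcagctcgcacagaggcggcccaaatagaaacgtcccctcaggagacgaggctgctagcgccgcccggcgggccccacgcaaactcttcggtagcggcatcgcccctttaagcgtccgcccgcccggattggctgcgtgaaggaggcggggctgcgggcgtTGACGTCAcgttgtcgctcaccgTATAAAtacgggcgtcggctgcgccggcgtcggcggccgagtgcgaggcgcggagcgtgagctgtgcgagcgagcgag
Areg: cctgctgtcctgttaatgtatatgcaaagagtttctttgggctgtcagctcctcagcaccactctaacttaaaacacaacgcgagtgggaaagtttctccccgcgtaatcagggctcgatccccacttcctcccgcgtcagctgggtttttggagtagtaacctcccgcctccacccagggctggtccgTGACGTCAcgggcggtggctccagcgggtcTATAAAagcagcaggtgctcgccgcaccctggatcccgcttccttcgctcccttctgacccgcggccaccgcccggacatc

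The response element begins at position -51 in the Errfi1 window and at -61 in the Areg window, counted from the annotated start. The TATA element begins at -28 and -31. On either strand, TGACGTCA occurs in 1.79% and TATAAA in 13.6% of the 32817 promoter windows of the table, and both occur together in 0.171% of them. Errfi1 has another annotated window (chr4:150853546-150853845), which holds neither. The windows of Tgfa, Egfr, Erbb2 and Adam17 hold neither element. The AP-1 motif (TGANTCA), the EGR motif (GCGNGGGCG) and the antioxidant response element (TGACNNNGC), searched on both strands, occur in 0 of the 7 windows of these 6 genes, and in 7.81%, 5.56% and 12.4% of all windows. An NF-kappaB-type motif (GGGNNNTCC) occurs in the Tgfa and Egfr windows and in 17.8% of all windows. These matches describe the letters of the windows and not the binding of any factor.

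Hbegf encodes heparin-binding EGF-like growth factor, a ligand of EGFR and ERBB4, and lies on chromosome 18 (36504927 to 36515805, minus strand, GRCm38). In vehicle replicates 1, 2 and 3 it had 72.5, 67.9 and 75.1 FPKM. With C13 the replicates had 44.6, 41.0 and 37.2 FPKM. Every C13 library lay below every vehicle library, and each group was tight, with an SD of 5.13% of the mean in vehicle and 9.04% in C13. The group means were 71.8 ± 3.69 and 40.9 ± 3.70 FPKM (SD, n = 3 each), so the C13 mean was 43.0% lower, a difference of -0.80 on the log2(FPKM + 1) scale (limma SE 0.094). In bulk RNA a lower level cannot be told apart from fewer cells of the type that makes it.

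Ereg encodes epiregulin, another EGFR ligand, and lies on chromosome 5 (91074622 to 91093646, plus strand). Vehicle replicates 1, 2 and 3 had 102, 56.9 and 88.9 FPKM. The C13 replicates had 98.6, 85.4 and 88.3 FPKM. The groups overlapped, with vehicle replicate 2 far below the other 5 libraries. The difference was 0.17 on the log2(FPKM + 1) scale (SE 0.21), and it was -0.07 (SE 0.083) without vehicle replicate 2, so no direction can be given for Ereg.

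Areg, which encodes amphiregulin, is the neighbour of Ereg on chromosome 5 (91139599 to 91148432, plus strand). Its levels were 2.21, 2.79 and 3.00 FPKM in the vehicle libraries and 3.01, 4.09 and 2.39 FPKM in the C13 libraries. The groups overlapped, and the lowest C13 library lay between the vehicle libraries. On the log2(FPKM + 1) scale the difference was 0.17 (SE 0.17). At the estimated depth an Areg value rests on about 23.9 to 57.5 fragments, a counting error of 13.2% to 20.5% of the value. The SD was 15.4% of the mean in vehicle and 27.2% in C13, and no direction can be given for Areg.

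Tgfa, which encodes transforming growth factor alpha, lies on chromosome 6 (86195223 to 86275719, plus strand) and stayed below the limit for testing. It had 0.357, 0.0844 and 0.213 FPKM under vehicle and 0.364, 0.296 and 0.245 FPKM under C13. These values rest on about 4.11 to 18.6 fragments, and the groups overlapped.

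**Figure D1:**
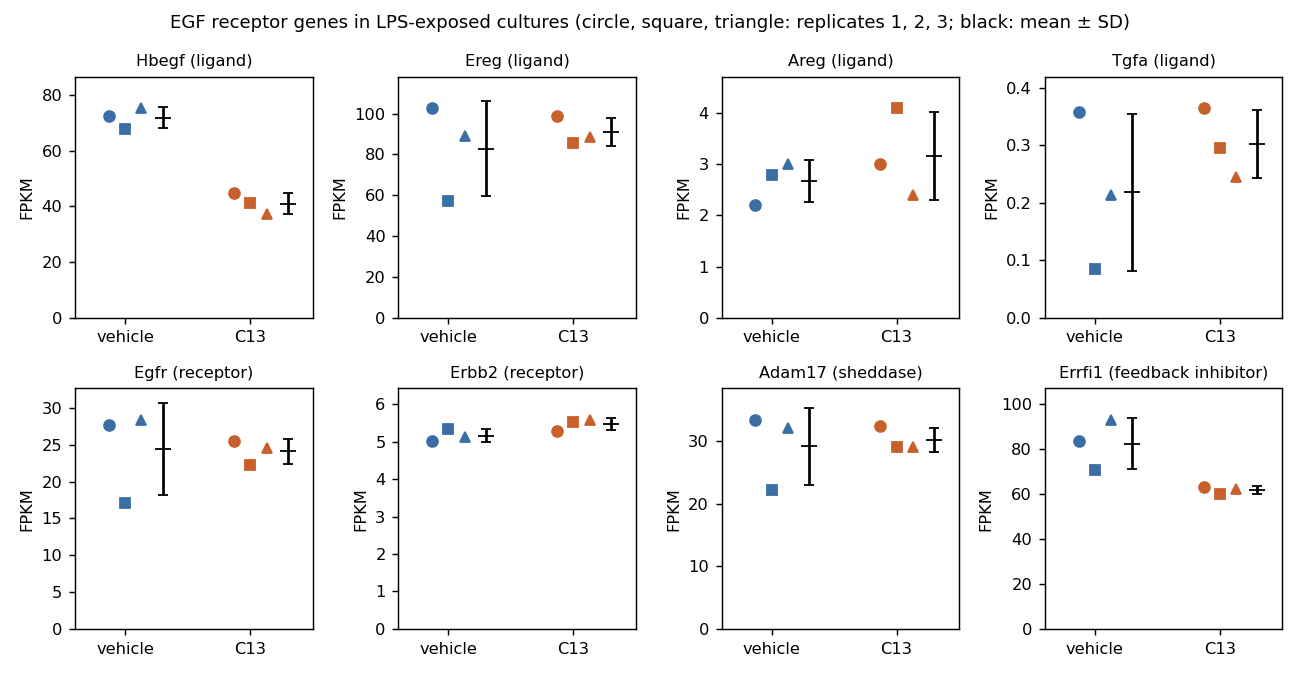
Levels of the 8 genes in FPKM (vertical axes, each starting at 0) in the 3 vehicle libraries (blue) and the 3 C13 libraries (orange); circles, squares and triangles are replicates 1, 2 and 3, and the black bar is the mean ± SD. Hbegf and Errfi1 have all C13 libraries below all vehicle libraries, while vehicle replicate 2 is the lowest library for Ereg, Tgfa, Egfr and Adam17.

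The share of each ligand gene among the EGFR ligands was also compared. The summed level of 7 ligand genes (the 4 above with Btc, Epgn and Egf) was 162 ± 27.3 FPKM under vehicle and 138 ± 9.77 FPKM under C13 (SD, n = 3), with overlapping groups. Hbegf made up 39.6% to 51.7% of that sum in the vehicle libraries and 28.2% to 30.6% in the C13 libraries. Ereg made up 43.4% to 56.0% with vehicle and 63.8% to 67.0% with C13. Neither range overlapped between groups. A share taken within a library does not depend on a factor common to all its genes, but a scaling that differs between genes can change it. The highest Hbegf share and the lowest Ereg share were those of vehicle replicate 2. Among vehicle libraries the order of these ligands was not fixed, since Ereg exceeded Hbegf in replicates 1 and 3 and Hbegf exceeded Ereg in replicate 2. In each C13 library Ereg exceeded Hbegf. The level of Hbegf divided by that of Ereg was 0.708, 1.19 and 0.845 in vehicle replicates 1, 2 and 3 and 0.452, 0.480 and 0.421 in C13 replicates 1, 2 and 3. Because the shares and this ratio contain Hbegf, they repeat the difference for which the genes were chosen and are no independent support. Hbegf and Ereg made up nearly all of the sum. A lower Hbegf share therefore goes with a higher Ereg share, although the level of Ereg itself overlapped between groups.

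**Figure D2:**
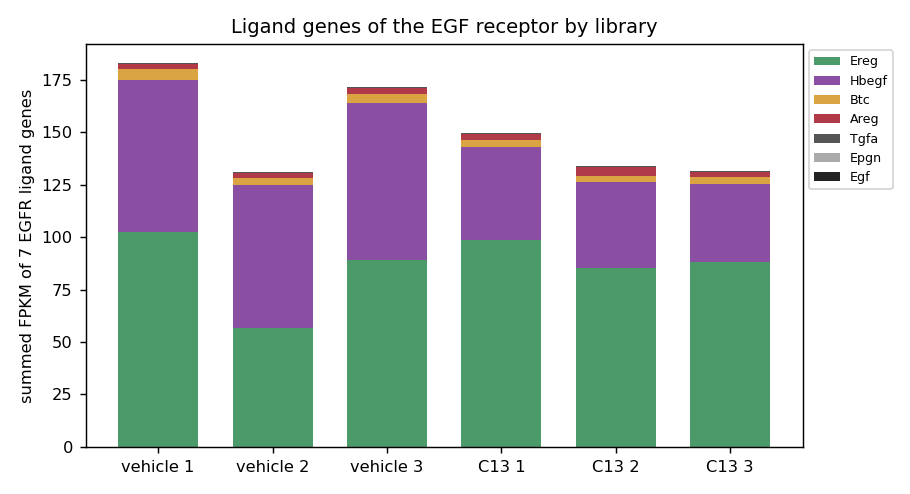
Stacked bars of the FPKM of 7 EGFR ligand genes (vertical axis, summed FPKM) in each of the 6 libraries (horizontal axis). Ereg and Hbegf make up nearly all of each bar, and the Hbegf part is between 28.2% and 30.6% of the sum in the C13 libraries against 39.6% to 51.7% in the vehicle libraries.

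The remaining genes of the ligand family, taken from a list of 7, lay below Ereg and Hbegf in every library. Btc, which encodes betacellulin, had 5.40, 3.35 and 4.30 FPKM under vehicle and 3.03, 2.95 and 3.43 FPKM under C13. Its groups overlapped and it did not pass (change of -0.35 in log2(FPKM + 1), SE 0.15, limma adjusted p = 0.688 over all genes tested). Nrg1, which encodes a ligand of ERBB3 and ERBB4, had 7.82 ± 1.30 and 6.69 ± 0.779 FPKM (SD, n = 3) and did not pass (limma adjusted p = 0.821). The change of Btc was -0.22 without vehicle replicate 1 and -0.50 without vehicle replicate 2 (limma adjusted p = 0.0922). That of Nrg1 went from -0.19 to -0.08 without vehicle replicate 3 and to -0.27 without vehicle replicate 2. Epgn, Egf and Nrg2 had at most 0.132 FPKM in any library, and Nrg4 had 0.412 to 0.838 FPKM. Nrg3 was listed at 0.01 FPKM, the lowest value of the table, in all 6 libraries.

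Egfr, the receptor gene, lies on chromosome 11 (16752203 to 16918158, plus strand). Its levels were 27.7, 17.1 and 28.4 FPKM in vehicle replicates 1, 2 and 3 and 25.5, 22.2 and 24.6 FPKM in the C13 replicates. The C13 libraries lay between vehicle replicate 2 and the other vehicle libraries. The difference was 0.01 on the log2(FPKM + 1) scale (SE 0.19) with all libraries and -0.21 (SE 0.070) without vehicle replicate 2, in which case both vehicle libraries lay above all C13 libraries. The sign of the Egfr difference thus depended on that library.

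Erbb2 lies on the same chromosome (98412470 to 98437716, plus strand) and had the smallest relative spread of the 8 genes among the vehicle libraries. It had 5.02, 5.34 and 5.13 FPKM under vehicle and 5.30, 5.54 and 5.59 FPKM under C13. The SD was 3.15% of the mean in vehicle and 2.80% in C13, and the groups overlapped only in vehicle replicate 2 and C13 replicate 1. The estimated counting error of an Erbb2 value was 5.59% to 6.68%, more than either SD, so the small spread is no mark of precision. The difference was 0.07 on the log2(FPKM + 1) scale (SE 0.090). Egfr RNA exceeded Erbb2 RNA in every library, by a ratio of 3.21 to 5.52 with vehicle and 4.01 to 4.81 with C13 in FPKM, a unit that takes transcript length into account. Transcripts of the other receptors of the family were close to the lowest listed value. Erbb3 had 0.0449 to 0.145 FPKM, and Erbb4 was listed at 0.01 FPKM in the 5 libraries other than vehicle replicate 1.

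Adam17 encodes the protease that sheds EGFR ligands and tumour necrosis factor, and lies on chromosome 12 (21323509 to 21373632, minus strand). Vehicle replicates 1, 2 and 3 had 33.5, 22.2 and 32.1 FPKM, and the C13 replicates had 32.4, 29.1 and 29.1 FPKM. The groups overlapped, and the difference was 0.06 on the log2(FPKM + 1) scale (SE 0.16), or -0.12 (SE 0.066) without vehicle replicate 2. The loci of Erbb2 and Adam17 overlap another row of the table, so part of their reads may belong to a neighbouring gene.

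Errfi1, the feedback inhibitor gene whose promoter window is printed above, lies on chromosome 4 (150853919 to 150868892, plus strand). It had 83.5, 70.5 and 92.8 FPKM under vehicle and 63.1, 59.8 and 62.0 FPKM under C13. All C13 libraries lay below all vehicle libraries, and the C13 libraries were close together. The means were 82.2 ± 11.2 and 61.7 ± 1.68 FPKM (SD, n = 3), and the C13 mean was 25.0% lower. The difference was -0.40 on the log2(FPKM + 1) scale (SE 0.11) and -0.51 (SE 0.059) without vehicle replicate 2. After rescaling of the libraries to TPM (the same total in every library) it was -0.27. This rescaling moved the median of all genes by 0.13, and the difference less that shift was -0.39. The Errfi1 groups overlapped after that rescaling and after quantile normalization, whereas those of Hbegf stayed apart under both. The Hbegf difference was -0.67 after rescaling to TPM (-0.80 less the shift) and -0.72 after quantile normalization.

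**Figure D3:**
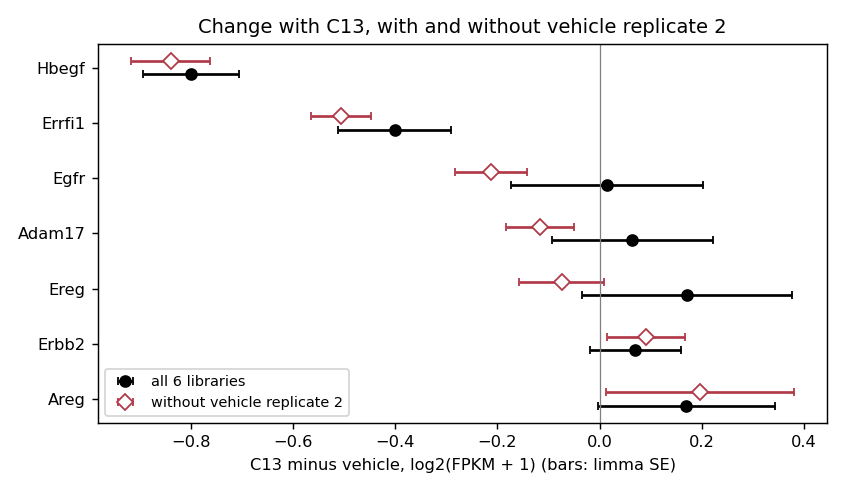
Difference between C13 and vehicle in log2(FPKM + 1) (horizontal axis) for the 7 genes that reached the limit for testing, with all 6 libraries (filled circles) and without vehicle replicate 2 (open diamonds); bars are the limma SE. Hbegf and Errfi1 lie at -0.80 and -0.40 with all libraries, and the values of Egfr, Adam17 and Ereg change sign when vehicle replicate 2 is left out.

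In all, 2 of the 8 genes had groups that did not overlap, both lower with C13. Over the 11412 genes tested, 9.78% had C13 libraries that all lay below the vehicle libraries 6.83% had them all above, and 16.6% were apart in either direction. Nothing is read from the count of 2, since the genes were chosen on this contrast. The limma test called 0 of the 11412 genes at an adjusted p of 0.05, a share of 0.0%, while 837 genes (7.33%) had an unadjusted p under 0.05. Ordered by mean level with vehicle, Ereg, Errfi1 and Hbegf came first and their ranges overlapped from neighbour to neighbour. Adam17 and Egfr followed, also overlapping, and then Erbb2, Areg and Tgfa, each apart from the one before. With C13 the order was the same and each gene was apart from its neighbours in range.

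Several facts of the libraries touch these values. Vehicle replicate 2 had a median correlation across genes of 0.969 with the other libraries, against 0.984 to 0.989 for the rest. Its values were higher than the mean of the other vehicle libraries by a median of 0.38 in log2(FPKM + 1) for genes whose longest annotated transcript is under 2000 nt, and differed by -0.30 for those over 4000 nt. It was the lowest of the 6 libraries for 4 of the 8 members and for 35.8% of the genes tested. The longest annotated transcripts of those 4 members, Ereg, Tgfa, Egfr and Adam17, have 4128, 4527, 10208 and 4469 nt. The part of transcript length in the members' values was not tested. Depth was estimated from the smallest steps between low FPKM values. It was about 8900000 to 10770000 fragments in the vehicle libraries and 11130000 to 11550000 in the C13 libraries, with no overlap between groups. The FPKM of all genes summed to 528593 to 634451 in the vehicle libraries and to 504674 to 524549 in the C13 libraries, groups that did not overlap.

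The cultures held RNA of more than microglia. All 8 microglial markers were detected in every library, with 57.9 to 69.3 FPKM for the receptor gene Csf1r and 141 to 219 FPKM for Trem2, and 1.89 to 3.21 FPKM for the homeostatic marker Cx3cr1. The fibroblast and mural cell markers were far more abundant. Col1a1, a collagen gene, had 1773 to 2137 FPKM and the smooth muscle actin gene Acta2 had 1327 to 1793 FPKM under vehicle and 1125 to 1295 FPKM under C13. The 8 fibroblast and mural markers summed to 5505 to 6288 FPKM under vehicle and 5242 to 5637 FPKM under C13, against 499.8 to 559 and 454 to 522 FPKM for the 8 microglial markers, and the groups overlapped in both sums. Within these lists 2 markers had all C13 libraries below all vehicle libraries, where 9.78% of all genes tested did. They were Acta2 and the microglial receptor gene P2ry12 (2.05 to 3.18 FPKM under vehicle and 1.30 to 2.00 FPKM under C13). The fibroblast markers Dcn and Lum stood out in C13 replicate 2, with 165 and 35.2 FPKM. Elsewhere Dcn had 79.6 to 104 FPKM and Lum 15.2 to 19.6 FPKM. The 8 astrocyte markers summed to 48.7 to 60.6 FPKM under vehicle and 65.5 to 117 FPKM under C13, groups that did not overlap. In 5 of the 8 (Gfap, Aqp4, Slc1a2, Slc1a3 and Gja1) all C13 libraries lay above all vehicle libraries, where 6.83% of all genes tested did. Gja1, the largest part of that sum in every library, had 32.3 to 43.8 FPKM under vehicle and 47.2 to 52.0 FPKM under C13. Gfap had 35.6 FPKM in C13 replicate 2 and 2.74 to 8.79 FPKM elsewhere. The 4 epithelial markers summed to 37.3 to 83.3 FPKM under vehicle and 38.1 to 59.0 FPKM under C13. The oligodendrocyte lineage list summed to 44.3 to 55.7 and 45.3 to 53.5 FPKM, nearly all of it from Cspg4 and Pdgfra. Pdgfra had all C13 libraries above all vehicle libraries (2.95 to 3.76 FPKM under vehicle and 4.30 to 7.87 FPKM under C13), where 6.83% of all genes tested did. Cspg4 had 39.8 to 50.8 and 35.2 to 47.8 FPKM, with overlapping groups, and Mog was at the lowest listed value throughout. Endothelial markers summed to 6.57 to 11.1 and 8.28 to 9.62 FPKM. Neuronal markers summed to 9.50 to 14.4 and 10.3 to 11.2 FPKM, nearly all of it Tubb3. In such mixtures the cell type that made each EGF receptor system transcript cannot be told from the table, and the part of these other cells in the differences was not tested.

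**Figure D4:**
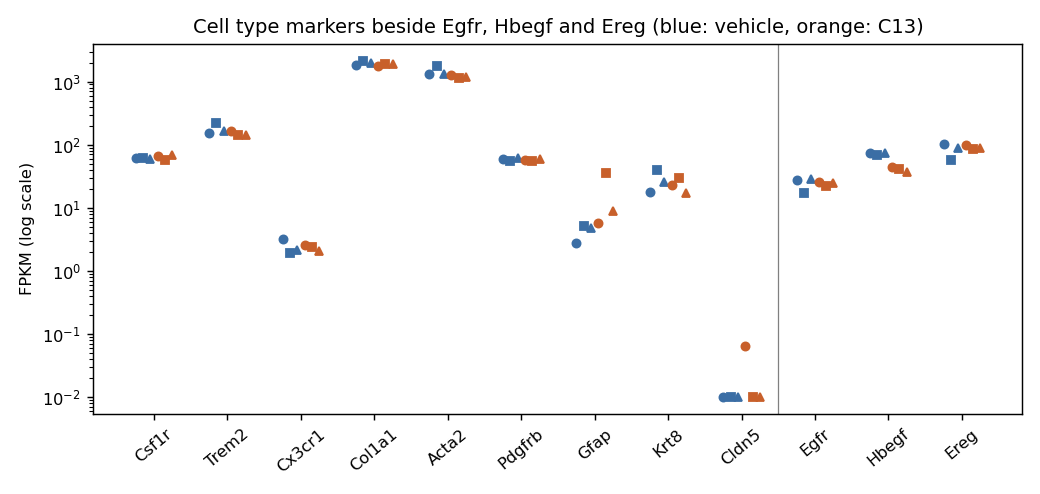
FPKM on a log axis of 9 cell type markers and of Egfr, Hbegf and Ereg in each library (blue for vehicle, orange for C13; circles, squares and triangles are replicates 1, 2 and 3). Col1a1 and Acta2 lie between 1125 and 2137 FPKM, above the microglial markers Csf1r, Trem2 and Cx3cr1, and Gfap stands out in C13 replicate 2.

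Other genes of the pathway were taken from 6 lists with 78 genes in all, of which 69 reached the limit for testing. The limma test called 0 of the 69 at an adjusted p of 0.05, while 2 were higher and 9 lower with an unadjusted p below 0.05, shares to set beside 2.57% and 4.77% of all genes tested. The 17 early response genes that growth factor and other signals induce through ERK gave 8 of those 9. Of their 16 tested genes 14 lay below 0 and 9 had all C13 libraries below all vehicle libraries, with a median difference of -0.23 in log2(FPKM + 1) against -0.0003 over all genes tested, of which 9.78% were apart on the lower side. After rescaling to TPM the list median was -0.12 (-0.25 once the shift of all genes is subtracted), and 3 of the 16 genes were apart on the lower side, against 3.36% of all genes tested. After quantile normalization the median was -0.16 and 6 of the 16 were apart on the lower side, against 7.97% of all genes tested.

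The 4 early response genes with the smallest p were Dusp5, Plaur, Egr1 and Myc. Dusp5, which encodes a phosphatase that inactivates ERK, had 32.0 ± 2.70 FPKM under vehicle and 23.3 ± 0.866 FPKM under C13. Plaur, the urokinase receptor gene, had 226 ± 11.6 and 167 ± 12.4 FPKM. Egr1, an early transcription factor gene, had 34.5 ± 3.47 and 25.0 ± 1.38 FPKM. The transcription factor gene Myc had 50.7 ± 3.83 and 39.6 ± 0.651 FPKM (SD, n = 3 each). In all 4 the groups did not overlap, yet none passed over all genes (limma adjusted p of 0.316, 0.316, 0.365 and 0.393 in that order). Because they were taken for their small p, the separation is only a description. Of all genes tested, 9.78% were apart on the lower side. Without vehicle replicate 2 limma called these 4 of the 69 pathway genes, all lower, with changes of -0.51, -0.40, -0.52 and -0.29 and adjusted p of 0.0187, 0.0454, 0.0235 and 0.0455, where 1.07% of all genes were called lower.

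Among 12 genes of ligand shedding, 5 lay above 0 and 7 below, with a median difference of -0.01, and 0 passed (limma, lowest adjusted p = 0.800). Without vehicle replicate 2 the median was -0.10, and Adam9, Adam10, Adam12 and Adam19 turned from above to below 0, Adam10 from 0.11 to -0.16. Frmd8 turned the other way, from -0.02 to 0.06. The 4 with the smallest p were Rhbdf1 and Rhbdf2, which encode the inactive rhomboids that bring ADAM17 to maturity, Adam15 and the nardilysin gene Nrd1. Rhbdf2 had 52.6 ± 2.17 FPKM under vehicle and 47.3 ± 4.80 FPKM under C13. Rhbdf1 had 17.2 ± 2.21 and 15.0 ± 0.291 FPKM. Adam15 had 72.1 ± 9.72 and 64.8 ± 0.764 FPKM, and Nrd1 had 36.3 ± 0.736 and 34.1 ± 0.665 FPKM (SD, n = 3 each). Rhbdf1 and Nrd1 had groups that did not overlap, both lower with C13, which is 2 of 12 genes where 9.78% of all genes tested were apart on that side. Without vehicle replicate 2 the change of Rhbdf1 went from -0.18 to -0.09 and that of Adam15 from -0.14 to -0.04, and without C13 replicate 2 that of Rhbdf2 went from -0.16 to -0.07 in log2(FPKM + 1).

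The negative regulators went both ways. Of 17 tested genes 10 lay above 0 and 7 below, the median difference was 0.08, and 0 passed (limma, lowest adjusted p = 0.606). Without vehicle replicate 2 the median was -0.13. Spry2, a Sprouty inhibitor gene of the ERK pathway, had 13.2 ± 1.16 FPKM under vehicle and 10.8 ± 0.290 FPKM under C13, whereas its relative Spry1 had 1.61 ± 0.143 and 2.34 ± 0.435 FPKM. Lrig1, which encodes a membrane protein that promotes receptor turnover, had 10.7 ± 1.37 and 13.1 ± 1.34 FPKM. In these 3 of the 17 genes the groups did not overlap, as in 16.6% of all genes tested, and the change of Lrig1 went from 0.27 to 0.17 without vehicle replicate 2. The ubiquitin ligase gene Cbl had 5.11 ± 3.21 and 7.88 ± 1.62 FPKM (SD, n = 3 each), with its wide vehicle spread coming from 1.41 FPKM in vehicle replicate 2, and its change of 0.71 in log2(FPKM + 1) was 0.14 without that library.

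The 22 genes that relay the receptor signal were all tested, and 0 passed (limma, lowest adjusted p = 0.632), with 14 above 0, 8 below and a median of 0.09. That median was -0.01 without vehicle replicate 2. The adaptor gene Gab1 had 2.44 ± 0.487 FPKM under vehicle and 2.98 ± 0.236 FPKM under C13. Plcg1, a phospholipase gene, had 4.42 ± 0.604 and 5.61 ± 0.215 FPKM, and Pik3r1, a regulatory subunit gene of phosphoinositide 3-kinase, had 5.98 ± 1.46 and 7.49 ± 0.132 FPKM (SD, n = 3 each). The C13 libraries lay above the vehicle libraries in Plcg1 and Pik3r1 and overlapped them in Gab1. Over the list, 3 of the 22 genes were apart on the upper side and 0 on the lower. Of all genes tested, 6.83% were apart on the upper side. Without vehicle replicate 2 the change of Pik3r1 in log2(FPKM + 1) went from 0.31 to 0.12 and that of Gab1 from 0.22 to 0.10.

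**Figure D5:**
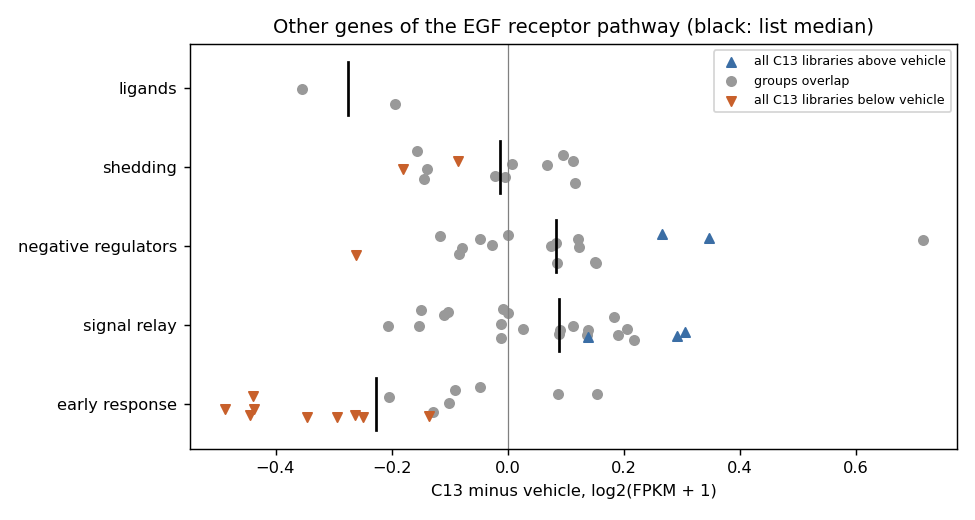
Difference between C13 and vehicle in log2(FPKM + 1) (horizontal axis) for the tested genes of 5 pathway lists (rows; points are spread vertically for legibility), with triangles for genes whose groups did not overlap and black bars for list medians. Early response genes have a median of -0.23, with 9 of 16 genes apart on the lower side, while the lists of shedding, negative regulators and signal relay lie around 0.

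The 5 tested genes whose log2(FPKM + 1) values followed Hbegf most closely over the 6 libraries were Cpa6, Ifi205, Zfp296, Tagap and Ifit1, with Pearson r of 0.995 to 0.996 as the measure of likeness. In each of the 5 all C13 libraries lay below all vehicle libraries, which follows from choosing them by likeness to Hbegf and is given only as a description (9.78% of all genes tested were apart on that side). Cpa6, a carboxypeptidase gene, had 1.49 ± 0.0813 FPKM under vehicle and 0.660 ± 0.0705 FPKM under C13, so it reached the limit for testing only through its vehicle level. Ifi205, of the interferon-induced IFI200 family, had 317 ± 15.6 and 234 ± 12.4 FPKM, and its reads can be hard to separate from those of close paralogs. The zinc finger gene Zfp296 had 6.26 ± 0.341 and 4.10 ± 0.249 FPKM. Tagap had 19.8 ± 1.57 and 12.3 ± 0.985 FPKM. The interferon-induced gene Ifit1 had 1336 ± 37.5 and 1075 ± 45.3 FPKM (SD, n = 3 each). Errfi1 was number 256 in likeness among the 11411 other genes tested, and the 5 other tested members ranked between 5155 and 11206.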

How the data were processed

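Each gene has 1 deposited FPKM value in every library. The submitters' processing notes name TopHat2 2.1.0, Cufflinks and the mm10 build as what the authors used. Which annotation, Cufflinks version and strand setting were used is not given in the sources used here. Per the labels, poly-A RNA went into a stranded library kit. Columns were matched to samples by their descriptions, and 1 emptied line was left out. Values were taken as log2(FPKM + 1). The test covered genes that averaged 1 FPKM or more across all 6 libraries and used limma 3.58.1 under R 4.3.3 (intensity trend, two-sided, Benjamini-Hochberg adjustment over the 11412 genes, threshold 0.05). This scale understates the change of low genes. The fit was tested on simulated data. FPKM keep no read totals, so depth was estimated from the value of 1 fragment in single-transcript genes of at least 1500 nt, and fragment numbers use the longest annotated transcript and cover counting error only. FPKM are not counts, and no count test was run. Positions are from GENCODE mouse release 21 (GRCm38, called mm10 by UCSC).

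The members and lists were chosen with earlier results of these data known. From each pathway list the 4 genes with the smallest p, every ligand and receptor as values, and the 5 genes most like Hbegf were named. A gene that the rule took is not reported here. Alternatives were other pseudocounts, filters, scalings and weights, replicate blocks and leaving out each library. The limits of 2000 and 4000 nt on transcript length were set after the data were seen.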

Additional observations from a re-analysis of the deposited data

How the results depend on the processing

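With all 6 libraries limma called 0 of 11412 genes. It called 12 without a filter on low values, 7 after quantile normalization, 2 after rescaling to TPM, 1 without the intensity trend and 42 with array weights, whose estimation stopped before its tolerance was reached. Leaving out 1 library gave 0 to 169 calls, the highest (47 higher, 122 lower) without vehicle replicate 2. Of the pathway genes, 0 were called with all libraries, 1 (Dusp5) with array weights, and 0 to 4 when 1 library was left out. The 2 members with groups apart became 1 after quantile normalization (Hbegf, lower, as were 7.97% of all genes tested). After rescaling to TPM the members apart were Hbegf, lower as were 3.36% of all genes tested, and Erbb2, higher. Leaving out 1 library gave 2 to 4, with Hbegf and Errfi1 among them each time. Groups that are apart stay apart when a library is left out, so this count could only stay or rise. The share of all genes with 1 library left out was not computed, and nothing is read from that count. The change of Nrd1 turned from -0.09 to 0.047 after rescaling to TPM, with an adjusted p of 0.813 by limma. Of the 18 pathway genes named by the rule, the other 17 kept their direction in every alternative that gave them a value. The cause of these differences was not tested.

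With the replicate number of the titles as a replicate block, limma called 0 genes. Same-numbered libraries deviated from their group means with correlations of 0.0886, 0.129 and 0.0978 across genes, so the numbers were not taken to pair the samples, although each vehicle library correlated best with its own number. A replicate block by the number in the description, which joins only 2 pairs, gave 40 calls (16 higher, 24 lower) and 0 of the pathway genes. Depth limits Tgfa and Areg most, and the remaining members rest on at least about 224 fragments a library.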
